A study of Mus musculus with 3 samples.

Results

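The 5 imprinted domains described here are windows of the mouse genome (build mm9) around H19 and Igf2, around Kcnq1 and Cdkn1c, around Ube3a and Snrpn, around Dlk1 and Meg3, and around Igf2r. Their members are the fragments within fixed bounds, whatever their values, and the windows were picked with earlier results of these data known. They hold 5575 of the 6415372 fragments of each profile, or 235 of 255936 bins of 10 kb. The study mapped lamina-associated domains (LADs), the stretches of chromatin held at the nuclear periphery, in wild type C57BL/6 mouse embryonic fibroblasts. Retroviruses brought in Dam alone or Dam joined to Lamin A (Dam-Lamin A) or to Lap2b (Dam-Lap2b), 1 sample in each of the 3 groups, and the promoter driving the fusions is not given in the sources used here. In DamID the bacterial methyltransferase Dam marks the adenine of GATC near the protein it is fused to, and the values here are log2 ratios for the fragments between GATC sites, presumably of a fusion over Dam alone. The lamina is a mesh of filaments to which Lamin A belongs, and Lap2b sits in the inner nuclear membrane and binds lamins. With 1 library per group no difference has a replicate check, no p-value is given, and the SDs printed are over neighbouring bins of 1 library. Expression was not measured, so the cell type could not be checked against marker genes.

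Imprinted genes are expressed from the maternal or the paternal copy only, under control regions that carry DNA methylation on the copy inherited from 1 parent. They lie in clusters in which a long noncoding RNA, such as H19, Kcnq1ot1, Snhg14, Meg3 or Airn, is typically made from the copy on which neighbouring protein-coding genes are silent. H19 and Igf2, a fetal growth factor, share enhancers that an insulator between them assigns to 1 gene on each copy. Cdkn1c, an inhibitor of the cell cycle, and Kcnq1, a potassium channel, lie in the cluster that Kcnq1ot1 silences, and Igf2r, a receptor that clears Igf2, lies in the cluster that Airn silences. Ube3a, a ubiquitin ligase, is imprinted in neurons, where the Snhg14 transcript that starts near Snurf and Snrpn runs against it and carries tandem arrays of small nucleolar RNAs. Dlk1 is a membrane protein that restrains fat cell formation, and Meg3 and Rian are noncoding RNAs of its cluster. The deposited values hold no allele, so every value below covers the maternal and paternal copies together, and in a cell population fewer cells in contact and less contact per cell cannot be told apart.

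DamID reads a sequence only through its GATC sites, so promoters of the clusters with and without a site are shown. Of 25 listed genes, 18 had a promoter in the RefSeq table, which is on build GRCm38.p6 and whose positions cannot be compared with the mm9 positions of the profiles. Of the 23 distinct promoters of 300 bases, 11 held at least 1 GATC (47.8%, against 48.0% of all 32851 promoters in the table). GATC reads the same on both strands. The 250 bases before the annotated start are printed 5′ to 3′, with GATC in capitals. The Igf2 promoter (chr7:142661272-142661521, minus strand) is the second of its 4 entries and the only one with a site, Ube3a (chr7:59228500-59228749, plus strand) has 1 site among 24 CG dinucleotides, and Igf2r (chr17:12769707-12769956, minus strand, 27 CG) and Kcnq1ot1 (chr7:143296548-143296797, minus strand, 5 CG) have none.
Igf2: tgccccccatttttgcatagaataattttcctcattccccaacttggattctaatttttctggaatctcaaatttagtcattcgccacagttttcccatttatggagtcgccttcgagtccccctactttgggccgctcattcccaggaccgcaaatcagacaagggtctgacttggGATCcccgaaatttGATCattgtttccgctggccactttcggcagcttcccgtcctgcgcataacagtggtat
Ube3a: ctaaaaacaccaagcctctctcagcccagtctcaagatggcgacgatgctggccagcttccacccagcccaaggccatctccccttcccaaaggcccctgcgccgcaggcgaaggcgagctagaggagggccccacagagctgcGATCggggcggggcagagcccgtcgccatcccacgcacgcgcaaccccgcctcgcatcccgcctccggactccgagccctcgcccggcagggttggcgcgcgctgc
Igf2r: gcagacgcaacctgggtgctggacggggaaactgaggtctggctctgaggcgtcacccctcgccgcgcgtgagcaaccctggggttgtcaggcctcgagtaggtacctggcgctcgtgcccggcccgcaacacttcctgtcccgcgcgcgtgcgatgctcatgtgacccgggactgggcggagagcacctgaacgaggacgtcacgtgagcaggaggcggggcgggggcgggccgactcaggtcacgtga
Kcnq1ot1: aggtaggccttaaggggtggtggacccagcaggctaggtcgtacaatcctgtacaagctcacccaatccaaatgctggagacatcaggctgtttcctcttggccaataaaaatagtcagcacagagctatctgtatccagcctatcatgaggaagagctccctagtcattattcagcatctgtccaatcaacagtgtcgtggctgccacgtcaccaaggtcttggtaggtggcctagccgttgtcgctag
In the Igf2 promoter the sites begin 73 and 59 bases before the start and cut out a piece of 14 bases, and in the Ube3a promoter the site begins 106 bases before the start. Where no site lies in a promoter, the fragment that spans it is set by sites outside the printed bases. As the files use mm9, and no annotation of that build was used, no value is tied to a promoter or gene. Genes are named only to say what each cluster is known for, and a listed gene may lie outside its window.

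Besides the profiles, a list of LADs was deposited for each fusion. Lists and profiles did not go together by their labels. Over the genome, bins in the Lap2b-labelled list alone averaged 0.37 in the Lamin A-labelled profile and 0.04 in the Lap2b-labelled profile, and bins in the Lamin A-labelled list alone averaged −0.04 and 0.46. Bins of the windows in 1 list alone are given here. The 10 bins of H19-Igf2 in the Lap2b-labelled list alone averaged 0.46 ± 0.30 in the Lamin A-labelled profile, where 10 of 10 were above 0, and −0.56 ± 0.57 in the profile of the list's own label, where 2 were. The 5 bins of Igf2r in the Lamin A-labelled list alone averaged −0.39 ± 0.48 in the profile of that label, with 1 above 0, and 0.08 ± 0.23 in the other, with 3 above 0. The 11 bins of Ube3a-Snrpn in the Lamin A-labelled list alone averaged 0.53 ± 0.69 in the profile of that label, with 7 above 0, and 0.75 ± 0.41 in the other, with 11 above 0. Dam-Lamin A minus Dam-Lap2b was −0.22 in these bins and −0.20 in the bins of that window in both lists. In H19-Igf2 it was 1.18 in the bins in neither list and 1.01 in those in the Lap2b-labelled list alone. Every profile and list is therefore named by its label only, and so are the differences between profiles and the reads of each fusion.

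Of the 5 windows, only Ube3a-Snrpn averaged above 0 in both profiles, and Kcnq1-Cdkn1c, Dlk1-Meg3 and Igf2r averaged below 0 in both. H19-Igf2 averaged above 0 in the Lamin A-labelled profile and below 0 in the other. In the Lamin A-labelled profile the means were 1.14 ± 0.97 (SD over 105 bins) in Ube3a-Snrpn, 0.22 ± 0.50 (20 bins) in H19-Igf2, −0.58 ± 0.70 (60) in Kcnq1-Cdkn1c, −0.77 ± 0.77 (30) in Dlk1-Meg3 and −1.12 ± 0.72 (20) in Igf2r. In the Lap2b-labelled profile they were 1.39 ± 0.83, −0.74 ± 0.87, −1.13 ± 0.57, −1.19 ± 0.70 and −0.76 ± 0.57 in the same windows. Neighbours in both orders lay within the larger of their SDs, except H19-Igf2 and Kcnq1-Cdkn1c in the Lamin A-labelled profile and Ube3a-Snrpn and H19-Igf2 in the Lap2b-labelled profile. Bins of the whole genome averaged 0.20 ± 1.31 and 0.29 ± 1.24.

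Counts of bins gave the same division. In the Lamin A-labelled profile, 92 of 105 bins lay above 0 in Ube3a-Snrpn, 14 of 20 in H19-Igf2, 13 of 60 in Kcnq1-Cdkn1c, 3 of 30 in Dlk1-Meg3 and 1 of 20 in Igf2r, against 55.2% of all bins in the genome. In the Lap2b-labelled profile the counts were 96, 4, 1, 1 and 3, against 59.3%. Pooled over the windows, 52.3% and 44.7% of the 235 bins were above 0, shares that join windows on either side of the background. The median bin stood at the 79.3th percentile of the genome in Ube3a-Snrpn in the Lamin A-labelled profile and at the 51.3th in H19-Igf2, and at the 80.5th and 24.5th in the Lap2b-labelled profile. The medians of the other windows lay between the 16.1th and the 33.1th percentile in both.

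**Figure D1:**
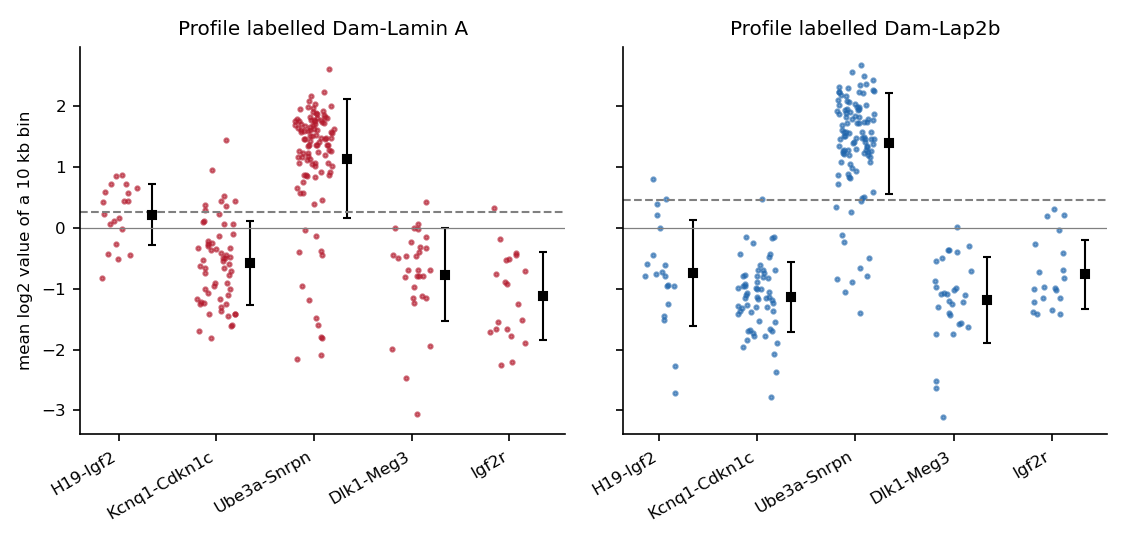
Mean log2 value (y axis) of each 10 kb bin, 1 point per bin, by window (x axis) in the Lamin A-labelled profile (left) and the Lap2b-labelled profile (right); black squares and bars are the mean and SD over bins, the dashed line is the median of all bins in the genome and the solid line is 0. Ube3a-Snrpn is high apart from a tail of low bins, and 14 of 20 H19-Igf2 bins are above 0 on the left but only 4 of 20 on the right.

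In the Lamin A-labelled list, LADs covered 86.3% of the bases of Ube3a-Snrpn, 25.4% of Igf2r and 14.1% of H19-Igf2. In the Lap2b-labelled list they covered 75.9%, 0% and 64.7%. Of genome bins, 54.6% and 50.5% had their middle in these lists, a measure unlike the shares of bases. By the middle of the bin, Ube3a-Snrpn stood at 90.5% and 80.0%. Neither list had a LAD in Kcnq1-Cdkn1c or in Dlk1-Meg3. By the middle of the bin, 84 bins of Ube3a-Snrpn and 3 of H19-Igf2 lay in both lists, against 47.9% of the genome. The Lamin A-labelled list alone held 11 bins of Ube3a-Snrpn and 5 of Igf2r, against 6.62%, and the Lap2b-labelled list alone held 10 bins of H19-Igf2, against 2.51%. In neither list were 7 bins of H19-Igf2, 60 of Kcnq1-Cdkn1c, 10 of Ube3a-Snrpn, 30 of Dlk1-Meg3 and 15 of Igf2r, against 42.9%.

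**Figure D2:**
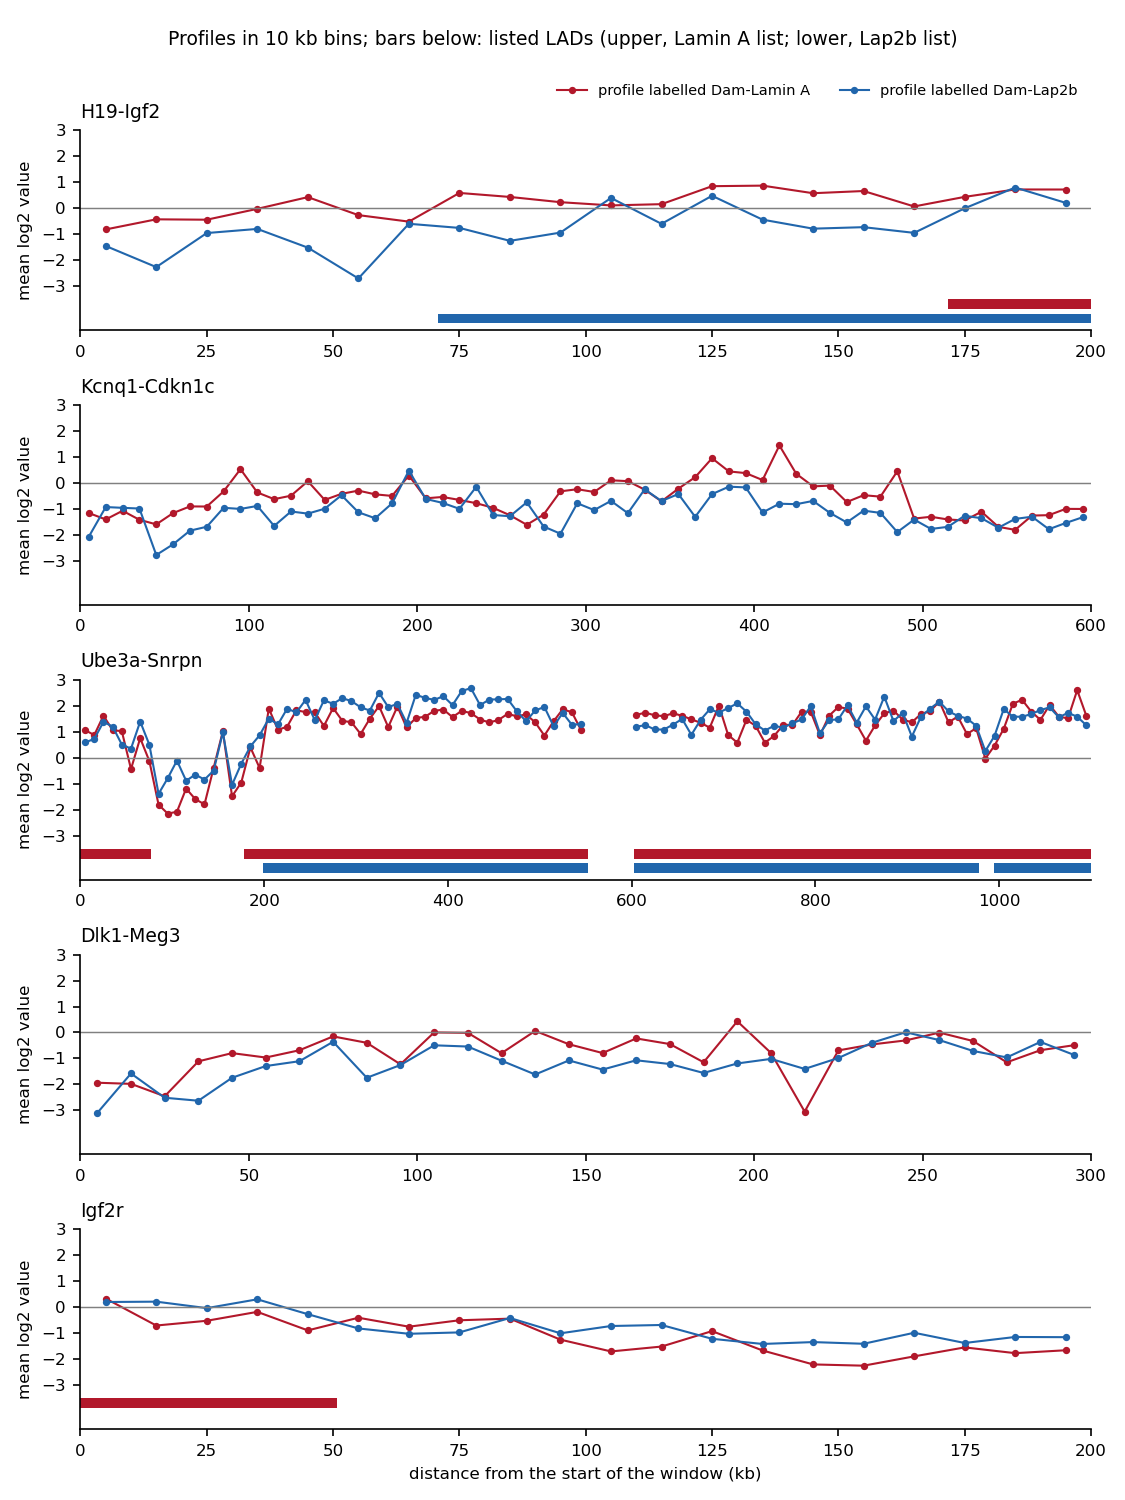
Mean log2 value of each 10 kb bin (y axis) along the 5 windows (x axis, kb from the start of the window) in the Lamin A-labelled profile (red) and the Lap2b-labelled profile (blue), with the LADs of each list as bars of the same colour below. In Ube3a-Snrpn both profiles drop below 0, apart from 1 bin, where neither list has a LAD near the start of the window, and the break in the lines marks 50 kb without fragments.

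The Ube3a-Snrpn window (chr7:66400001-67500000) lay mostly in listed LADs, with a trough near its low-coordinate end. From 66600001 to 67500000 the 50 kb averages ran from 0.81 to 1.87 in the Lamin A-labelled profile and from 1.09 to 2.31 in the Lap2b-labelled profile. Across this stretch the bins of both profiles were above 0, except 1 bin at −0.03 in the Lamin A-labelled profile. The longest unbroken run above 0 was 500 kb in the Lap2b-labelled profile, from 67000001 to the window's end, and 380 kb in the other, from the same start. On GRCm38.p6 the listed genes of this cluster follow each other as Ube3a, Snhg14, Snrpn and Snurf from low to high coordinates.

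The trough lay between LADs of the Lamin A-labelled list that ended at 66477116 and began again at 66578323, a gap of 101 kb. In its 10 bins the Lamin A-labelled profile averaged −1.24, from −2.16 to 1.02, and the Lap2b-labelled profile averaged −0.55, from −1.39 to 0.98. The lowest bins were 66490001 to 66500000 in the former (−2.16, at the 2.23th percentile of the genome) and 66480001 to 66490000 in the latter (−1.39, at the 10.5th percentile). The trough was the deeper in the Lamin A-labelled profile, with Dam-Lamin A minus Dam-Lap2b averaging −0.70 ± 0.64 (SD over the 10 bins). Its edges were steep, with the 10 kb inside the LAD ending at 66477116 exceeding the 10 kb outside by 2.29 and 1.89 in the Lamin A- and Lap2b-labelled profiles. At the LAD starting at 66578323 the steps were 1.30 and 1.08. Such steps are partly built in if the lists were called from these profiles.

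A single bin within the trough, 66550001 to 66560000, was high in both profiles, at 1.02 and 0.98. Its neighbours stood at −0.39 and −1.49 in the Lamin A-labelled profile and at −0.50 and −1.05 in the other, and it held 34 fragments with 692, 678 and 402 recovered reads for the Lamin A fusion, the Lap2b fusion and the reference. This bin was picked out after its values were seen. The Lap2b-labelled list had a wider gap here, of 276 kb from 66322181 to 66598493, and the 8 bins of the window below the trough, from 66400001 to 66480000, were in the Lamin A-labelled list alone. Those 8 bins ranged from −0.44 to 1.62 in the Lamin A-labelled profile and from 0.35 to 1.40 in the other.

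The high part of the window also held recurring series of fragment lengths. Runs of 3 neighbouring fragments of at least 20 bp whose exact lengths occurred again in the window took in 684 of its 2462 fragments (27.8%). They took in 5 of 746 in Dlk1-Meg3 and none in the 454, 1455 and 458 fragments of H19-Igf2, Kcnq1-Cdkn1c and Igf2r. Windows with fewer fragments offer fewer chances of a match. The share over the genome was not determined, so whether such runs are particular to this window is not known. In Ube3a-Snrpn these runs made up 64.9%, 66.0% and 64.0% of fragments in the 3 successive 100 kb stretches from 66600001. The most frequent run, with lengths of 98, 112 and 361 bp, occurred 35 times between 66730225 and 66869048, a median of 1873 bp apart. A run of 85, 1186 and 558 bp occurred 6 times between 67007942 and 67040156.

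Fragments in recurring runs averaged 1.62 in the Lamin A-labelled profile and 1.83 in the Lap2b-labelled profile. The remaining fragments of the window averaged 1.08 and 1.22. Runs were matched by exact length, so near-matches found only once stay among these remaining fragments. The median fragment of the run found 35 times had 0 recovered reference reads. How reads that match several places were counted is not given in the sources used here, and the part of the recurring runs in the values was not tested. Between the LADs that ended at 66952205 and began at 67002206 in both lists there were no fragments over 50 kb. Just above this break the recovered reads were far above those of the rest of the window. In the 4 bins from 67000001 to 67040000 they numbered 4691 to 6560 for the Lamin A fusion, 4672 to 5716 for the Lap2b fusion and 2043 to 2515 for the reference, where the median bins of the window held 417, 575 and 155. The log2 values of these bins, 1.60 to 1.74 and 1.09 to 1.26, were within the range of their surroundings.

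**Figure D3:**
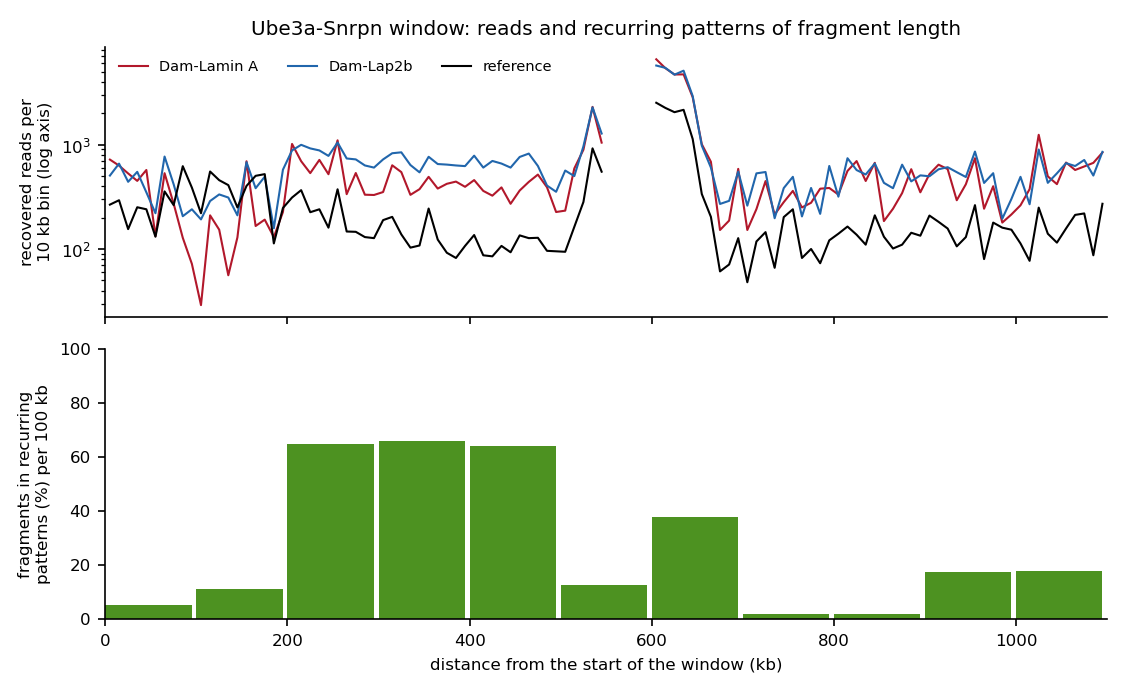
Recovered reads per 10 kb bin in 3 libraries (upper panel, log axis) and percent of fragments in recurring runs of fragment length per 100 kb (lower panel) along the Ube3a-Snrpn window (x axis, kb from its start). Recurring runs fill about 65% of fragments from 200 to 500 kb, and reads of all 3 libraries rise together on both sides of the break without fragments.

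The bins with the extreme differences lay at opposite ends of this window. The Lamin A-labelled profile exceeded the other most in 67480001 to 67490000, with 2.60 against 1.58, the bin that was also its own highest and stood at the 98.8th percentile. It fell short most in 66500001 to 66510000 of the trough, with −2.08 against −0.11, a bin with 29, 192 and 220 recovered reads for the Lamin A fusion, the Lap2b fusion and the reference. The highest bin of the Lap2b-labelled profile, 66820001 to 66830000, reached 2.69 and the 99.9th percentile and lay among the recurring runs. A narrow dip at 67380001 to 67390000 (−0.03 and 0.26) fell in a gap of 16.5 kb that the Lap2b-labelled list left between 67378517 and 67394972. Its edges had steps of 1.06 and 1.80 in the Lamin A-labelled profile and of 0.86 and 1.37 in the other, and the Lamin A-labelled list ran through it.

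The H19-Igf2 window (chr7:149700001-149900000) lay at the border of a listed domain and was the one window whose profiles differed in sign. H19 has the lowest coordinate of the listed genes on GRCm38.p6, followed by Igf2, Ins2, which encodes insulin, and Th, which encodes tyrosine hydroxylase. On that build the upstream bases of Igf2 reach up to 142667066 and those of Th begin at 142899996. That distance exceeds the 200 kb of the window. If distances are alike on mm9, the window cannot hold all of these genes. Per 50 kb, the Lamin A-labelled profile averaged −0.26, 0.10, 0.51 and 0.52 from low to high coordinates, and the Lap2b-labelled profile averaged −1.40, −1.25, −0.19 and −0.14. Both profiles were thus higher in the upper 100 kb than in the lower, at 0.52 against −0.08 in the Lamin A-labelled profile and at −0.16 against −1.33 in the other (10 bins each). The Lamin A-labelled profile was above 0 in an unbroken run of 130 kb, from 149770001 to the window's end, in which the Lap2b-labelled profile averaged −0.35.

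The LAD of the Lap2b-labelled list began at 149770674 and ran for 381 kb to 150152019, beyond the window. That of the Lamin A-labelled list began 101 kb higher, at 149871794, and ran for 195 kb. At the former start the step over 10 kb was 1.19 in the Lamin A-labelled profile and −0.10 in the Lap2b-labelled profile. At the latter it was 0.81 and 0.91. The 3 bins in both lists at the top of the window held 0.44, 0.72 and 0.72 in the Lamin A-labelled profile and 0.00, 0.80 and 0.21 in the other.

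The lowest bin of the Lap2b-labelled profile, 149750001 to 149760000, was also the bin with the largest difference between the profiles. It stood at −2.71, at the 0.541th percentile of the genome, against −0.27 in the Lamin A-labelled profile. It held 140, 1307 and 1254 recovered reads for the Lap2b fusion, the Lamin A fusion and the reference. Reads of a bin are sums over its fragments and its value is a mean over them. Summed reads above those of the reference can therefore go with a value below 0. The bin 149710001 to 149720000 was similar, with −2.27 and −0.43. The highest bins were 149830001 to 149840000 in the Lamin A-labelled profile (0.87) and 149880001 to 149890000 in the Lap2b-labelled profile (0.80), both below the means of Ube3a-Snrpn. With other averages, bins, fragments or window bounds, the window's mean ranged from 0.05 (bounds 50 kb outward) to 0.38 in the Lamin A-labelled profile and from −1.19 to −0.65 in the other. With the window bounds moved or bins counted, LADs of the Lamin A-labelled list covered 5.13% to 26.1% of it.

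The Kcnq1-Cdkn1c window (chr7:150200001-150800000) had no listed LAD and was low at both ends in both profiles. In the Lamin A-labelled profile the first 50 kb averaged −1.33 and the last 100 kb −1.33, while the 2 successive 50 kb stretches from 150550001 averaged 0.36 and 0.34. The Lap2b-labelled profile averaged −1.54 in the first 50 kb, −1.51 in the last 100 kb, and −0.49 and −0.92 in those 2 stretches. Of these, −0.92 was below its −0.65 from 150350001 to 150400000. On GRCm38.p6 the genes follow as Cd81 (a tetraspanin), Tssc4, Trpm5 (a cation channel of taste cells), Kcnq1, Kcnq1ot1, Cdkn1c, Slc22a18 (a membrane transporter), Phlda2 (a regulator of placental growth) and Nap1l4 (a histone chaperone).

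The run of 7 bins from 150560001 to 150630000 was the longest above 0 in the Lamin A-labelled profile, at 0.11 to 1.45, and averaged 0.56. In the Lap2b-labelled profile the same bins averaged −0.69, and its only bin above 0 in the window was 150390001 to 150400000 (0.47, with 0.29 in the other profile). The highest bin of the Lamin A-labelled profile was 150610001 to 150620000, with 1.45 at the 79.1th percentile against −0.80 at the 23.9th, on 660, 111 and 287 recovered reads for the Lamin A fusion, the Lap2b fusion and the reference. In 150680001 to 150690000 the profiles differed most, with 0.45 and −1.89. The lowest bins were 150750001 to 150760000 in the Lamin A-labelled profile (−1.81) and 150240001 to 150250000 in the Lap2b-labelled profile (−2.78).

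The Dlk1-Meg3 window (chr12:110650001-110950000) was outside the lists and lowest at its start. The first 50 kb averaged −1.66 in the Lamin A-labelled profile and −2.32 in the Lap2b-labelled profile, and the remaining 50 kb stretches ranged from −1.06 to −0.24 and from −1.30 to −0.64. Dlk1 has the lowest coordinate of the listed genes on GRCm38.p6, followed by Meg3, Rtl1, a retrotransposon-derived gene of the placenta, and Rian. In the bins 110650001 to 110660000 and 110670001 to 110690000 the reference held 3292 to 3602 recovered reads per bin, where the median bin of the genome held 381. Dam-Lamin A held 966 to 1062 reads in them and Dam-Lap2b 279 to 336, and their values were −1.11 to −2.46 and −2.52 to −3.10.

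A single bin of this window stood far below its neighbours in the Lamin A-labelled profile. In 110860001 to 110870000 the Lamin A-labelled profile fell to −3.05, at the 0.048th percentile of the genome, between neighbours at −0.79 and −0.69. The Lap2b-labelled profile stood there at −1.41, between −1.02 and −0.99. The recovered reads were 134 for the Lamin A fusion, 534 for the Lap2b fusion and 1212 for the reference over 27 fragments. Elsewhere the Lamin A-labelled profile was mostly the higher, most of all in 110780001 to 110790000 (0.06 against −1.62), which held only 106, 26 and 159 reads. Bins above 0 were rare and close to it, with 0.43 as the highest in the Lamin A-labelled profile and 0.01 in the other.

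The Igf2r window (chr17:12800001-13000000) declined from its low-coordinate to its high-coordinate end in both profiles. Per 50 kb the averages were −0.39, −0.67, −1.60 and −1.83 in the Lamin A-labelled profile and 0.08, −0.85, −1.08 and −1.22 in the Lap2b-labelled profile. Igf2r comes before Airn in the gene order on GRCm38.p6. The first 50 kb formed the end of a LAD of 225 kb in the Lamin A-labelled list, from 12626070 to 12850738, which the other list did not contain. Over its 22 bins that LAD averaged −0.07 in the Lamin A-labelled profile and 0.13 in the other. Genome bins in the Lamin A-labelled list alone averaged −0.04 ± 0.71 and 0.46 ± 0.47, and those in both lists averaged 1.29 and 1.34.

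At the end of that LAD the step was −0.24 in the Lamin A-labelled profile and 0.89 in the Lap2b-labelled profile, so values fell across the border in the profile of the other label and not in its own. The highest bins were 12800001 to 12810000 (0.33) in the former and 12830001 to 12840000 (0.30) in the latter. The lowest bin of the Lamin A-labelled profile was 12950001 to 12960000, with −2.25 at the 1.62th percentile, and that of the Lap2b-labelled profile was 12930001 to 12940000, with −1.42 at the 10.1th. In these 2 bins the reference held 1935 and 2359 recovered reads. No bin after 12810000 was above 0 in the Lamin A-labelled profile, a run of 190 kb.

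The profiles differed in opposite directions between windows. Both are ratios to what is presumably the same Dam-only library, so their likeness is not a result. Each difference reflects the fusions alone only if that holds. Its sign follows the labels of the profiles, which did not go together with those of the lists. Dam-Lamin A minus Dam-Lap2b averaged 0.96 ± 0.72 (SD over bins) in H19-Igf2, 0.56 ± 0.64 in Kcnq1-Cdkn1c and 0.42 ± 0.68 in Dlk1-Meg3, and −0.25 ± 0.55 in Ube3a-Snrpn and −0.36 ± 0.48 in Igf2r. It averaged −0.09 over all bins of the genome. It was above 0 in 18 of 20, 50 of 60, 24 of 30, 36 of 105 and 5 of 20 bins, in that order, against 44.2% of the genome. With reads summed over bins the difference was 1.55 in H19-Igf2 and 0.85 in Dlk1-Meg3, and with fragments weighted by length it was −0.67 in Ube3a-Snrpn.

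Differences of more than 2-fold, or 1 on the log2 scale, were common only in some windows. Dam-Lamin A exceeded Dam-Lap2b by this much in 10 of 20 bins of H19-Igf2, 14 of 60 of Kcnq1-Cdkn1c, 5 of 30 of Dlk1-Meg3, 1 of 105 of Ube3a-Snrpn and 0 of 20 of Igf2r, against 4.15% of the genome. The opposite held in 8 bins of Ube3a-Snrpn and 1 of Dlk1-Meg3 and in none of the other windows, against 7.08%.

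**Figure D4:**
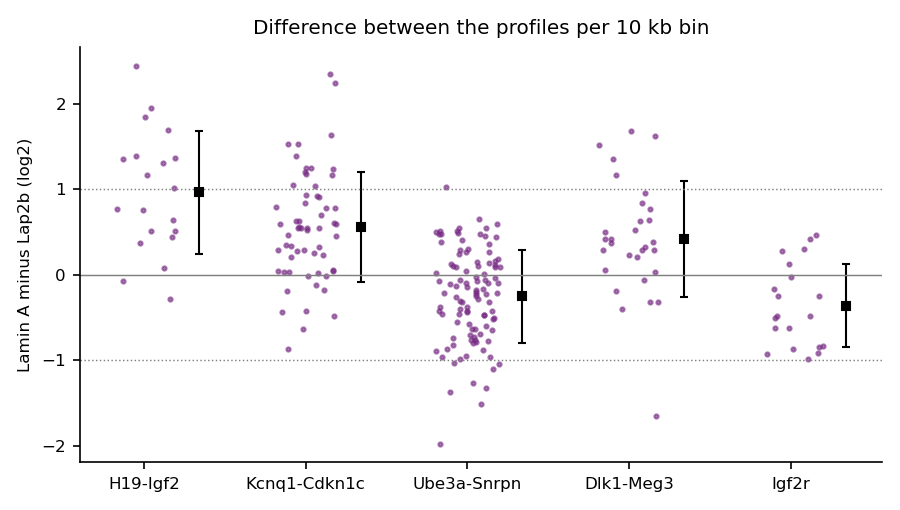
Dam-Lamin A minus Dam-Lap2b (y axis, log2) of each 10 kb bin by window (x axis), 1 point per bin, with the mean and SD over bins as black squares and bars and dotted lines at 1 and −1. H19-Igf2 has 10 of 20 bins above 1, and Igf2r has none beyond either line.

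The surroundings of the windows, 500 kb on each side, showed that Kcnq1-Cdkn1c and Dlk1-Meg3 lay next to higher chromatin on 1 side only. Below Dlk1-Meg3 the means were 0.34 ± 0.86 and −0.33 ± 0.89 in the Lamin A- and Lap2b-labelled profiles, with LADs from 110355221 to 110606124 and from 110311890 to 110624804 in the lists of those labels. Both ended before the window. Above it they were −0.87 ± 0.62 and −1.14 ± 0.61, close to the window's own −0.77 and −1.19. Below Kcnq1-Cdkn1c they were 0.43 ± 0.71 and −0.32 ± 0.90, a flank that takes in the whole H19-Igf2 window, and above it −0.49 ± 0.76 and −0.99 ± 0.82.

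Ube3a-Snrpn continued into a flank as high as itself on its upper side, with 1.13 ± 0.66 and 1.22 ± 0.39, and into a mixed one below, with −0.45 ± 1.52 and 0.01 ± 1.05. The upper flank was covered by LADs to 100% in the Lamin A-labelled list and to 97.0% in the other. H19-Igf2 stood above its lower flank (−0.65 ± 0.84 and −1.05 ± 0.90) and next to an upper one at 0.08 ± 0.93 and −0.51 ± 0.96, which takes in the first 20 bins of the Kcnq1-Cdkn1c window. Igf2r was lower than its flanks in both profiles, with −0.88 ± 0.86 and −0.61 ± 0.72 below and −0.51 ± 1.08 and −0.51 ± 0.88 above. A window differed from a flank by more than the larger of their SDs over bins only on lower sides. This held for Ube3a-Snrpn in both profiles, and for H19-Igf2, Kcnq1-Cdkn1c and Dlk1-Meg3 in the Lamin A-labelled profile.

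**Figure D5:**
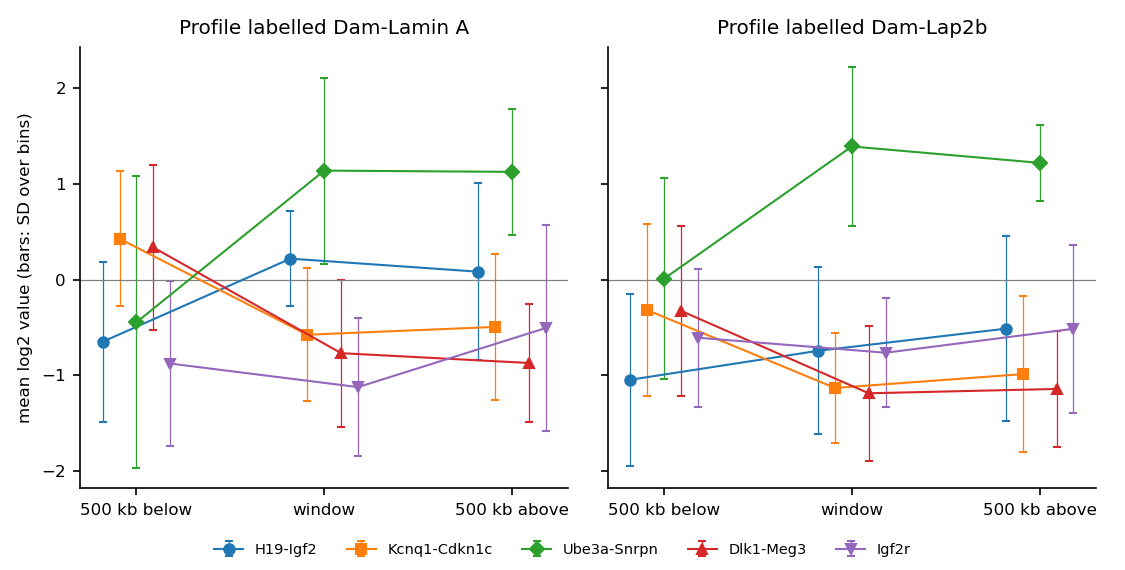
Mean log2 value (y axis, bars are SDs over bins) of the 500 kb below, the window and the 500 kb above (x axis) for each of the 5 imprinted windows, in the Lamin A-labelled profile (left) and the Lap2b-labelled profile (right). Ube3a-Snrpn and its upper flank lie near 1 in both profiles, and Dlk1-Meg3 drops from its lower flank into the window.

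Fragments were of like size in all 5 windows, and depth was not. Median fragment lengths were 267 to 281 bp, against 258 bp in the genome, and the median bin held 22 to 25.5 fragments. The median reference reads per bin were 812.5 in Igf2r, 600 in Dlk1-Meg3, 521.5 in Kcnq1-Cdkn1c, 376.5 in H19-Igf2 and 155 in Ube3a-Snrpn, against 381 in the genome. The order of the reference was thus the reverse of the order of the windows in the Lamin A-labelled profile. In the Lap2b-labelled profile it was not, as Igf2r (−0.76) stood above Kcnq1-Cdkn1c (−1.13) and Dlk1-Meg3 (−1.19). The reference is presumably the denominator of both profiles. Median reads of the fusions were 340.5 to 500 per bin for Dam-Lamin A and 178 to 575 for Dam-Lap2b, and the whole libraries summed to 139204430, 151514262 and 153455736 recovered reads for the Lamin A fusion, the Lap2b fusion and the reference. All recovered reads are lower bounds.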

How the data were processed

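Amplified DamID material of 1 sample per group was made into libraries with an Illumina kit, per the labels' protocols. The 3 groups follow the group label, and the Dam-only sample was not analysed here on its own. The submitters' processing notes name Bowtie and the build mm9, and the counting, normalization and domain caller are not given in the sources used here. The 4th column of the profiles holds log2 values as deposited by the authors, and the deposited LAD lists hold positions only. Positions are 0-based in the files and printed from 1.

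Fragments were assigned to 10 kb bins by their middle and averaged where a bin had at least 5. A bin was in a LAD when its middle was. Edge steps compare 10 kb on each side. How the lists were called is not given, and if they were called from these profiles, steps at listed edges are partly built in. Reads are the smallest whole numbers that give both values, as a constant (0.085 and 0.022) plus log2 of fusion over reference reads with 1 added to each, found for 99.997% of fragments. Binning and recovery were tested on simulated data, and the share of reads recovered exactly there is not reported here. Recovered reads can fall short of the true ones. Python 3.11.15, numpy 2.4.6 and pandas 2.3.3 were used. No test was run, since each group had 1 sample. In each window the bins named are the highest, the lowest and those with the largest differences, the longest run above 0 in each profile and every LAD edge, besides listed genes. The bins from 149710001, 66550001, 67000001 and 110670001, and the recurring runs of fragment length, were picked after their values were seen. Windows, genes and rules were chosen with earlier results of these data known. Alternatives changed the average, bin width, fragment lengths, window bounds and threshold, and 1, reads summed over bins, was added after the values were seen. Some listed genes are not reported here.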

Additional observations from a re-analysis of the deposited data

Results flagged for a closer look

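H19-Igf2 was singled out because its mean had opposite signs in the 2 groups. It averaged 0.22 in the Lamin A-labelled profile and −0.74 in the Lap2b-labelled profile. The difference was not tested, since each group had 1 sample.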

How the results depend on the processing

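Of 350 alternative values over 35 results, 324 stayed within their interval and 26 moved beyond it. The interval was the 95% interval of the mean over bins, or Clopper-Pearson for shares. These intervals treat neighbouring bins of 1 library as independent, so they only gauge the size of a shift. Among the 120 means and 60 differences, 0 changed sign, and shares have no sign. Every bin used held at least 10 fragments, so a minimum of 10 could not change a value. Dropping the minimum could only add bins of fewer than 5 fragments. These 2 settings, with 25 values each, are counted among the 324. With fragments weighted by length, the Dam-Lamin A minus Dam-Lap2b difference was 1.41 in H19-Igf2 and −0.67 in Ube3a-Snrpn, whose means were 0.90 (Dam-Lamin A) and 1.56 (Dam-Lap2b). With reads summed over bins, chosen after seeing the data, differences were 1.55 in H19-Igf2, 0.74 in Kcnq1-Cdkn1c, −0.37 in Ube3a-Snrpn and 0.85 in Dlk1-Meg3, and Dam-Lap2b means were −1.19 in H19-Igf2, 1.63 in Ube3a-Snrpn and −1.63 in Dlk1-Meg3. Of single fragments instead of bins, 39.2% (Dam-Lamin A) and 21.4% (Dam-Lap2b) were above 0 in Kcnq1-Cdkn1c, 35.3% and 24.5% in Dlk1-Meg3, and 26.9% (Dam-Lamin A) in Igf2r. The share above 0 of Dlk1-Meg3 in the Lap2b-labelled profile was 0% with medians, length weights, 20 kb bins, fragments of 200 to 1000 bp, summed reads or the genome median as threshold. It was also 0% with 20 kb bins for Kcnq1-Cdkn1c (Dam-Lap2b) and Dlk1-Meg3 (Dam-Lamin A), with bounds 20 kb inward for Igf2r (Dam-Lamin A) and with the genome median for Igf2r (Dam-Lap2b). The cause was not tested. No paired analysis was possible because each group had 1 sample. A single fragment rests on fewer reads than its bin, and whether depth moved the shares of single fragments was not tested.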
